A study of Physcomitrium patens with 6 samples.

Results

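A set of 79 transcribed loci stood clearly higher in ppdnmt2 than in wild-type protonemata of the moss Physcomitrium patens after mannitol treatment. They were selected from the deposited expression values themselves, among the 16817 loci whose 6 values averaged 1 FPKM or more, out of 23992 loci in all. A locus was taken when all 3 ppdnmt2 values were above 0 and the lowest of them was at least 1.5 times the highest of the 3 wild-type values. FPKM is the number of sequenced fragments per kilobase of transcript, scaled to the size of the library. The deposited header names no unit, and FPKM was inferred from the tools in the submitters' processing notes and from the values. Because the levels in all 6 libraries chose these loci, their values are given as a description, and no test of the difference between genotypes supports them.

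All plants were Gransden ecotype protonemata, 14 days of age, grown 9 days on solid and then 5 days in liquid BCDAT medium, and held in 600 mM mannitol for 24 h. The wild-type group (WT) and the mutant group (ppdnmt2) had 3 libraries each, and every mutant library came from line 8, so the mutation and anything else particular to that line cannot be told apart. Both groups received mannitol, and whether a difference between them depends on it was not measured. Nothing in the labels states that replicates were separate cultures, and the spread between them may be technical.

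DNMT2 enzymes resemble DNA methyltransferases in sequence but methylate a cytosine in the anticodon loop of certain tRNAs, and in Drosophila this mark was found to shield tRNAs from cleavage under stress. Mannitol lowers the water potential of the medium and so draws water out of the cells. Protonemata are branching filaments that grow from their tip cells and form the juvenile stage of the moss. Neither the mutated gene nor markers of protonemal cells could be looked up among the assembled loci, so the labels of genotype and tissue were not checked against expression.

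All 79 loci carried MSTRG names, which StringTie gives to transcribed loci that it assembles from the reads. The sources used here do not pair these names with genes, so no function, position or sequence is given for them. Of the 16817 tested loci 111 had a RefSeq identifier, and 0 of the 79 did. Another 59 loci met every part of the rule except the minimum mean, with means up to 0.958 FPKM. Of those, 37 had a RefSeq identifier, which is 62.7%, against 72.1% of all 7175 loci under a mean of 1 FPKM. In a RefSeq gene table (assembly ASM5946719v1) 15 of the 37 were protein-coding, 6 were lncRNAs, 1 was a transcribed pseudogene and 15 had no match.

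Summed over all loci, the values came to between 659739 and 688866 FPKM in the WT libraries and to between 746107 and 803850 FPKM in the mutant libraries. These values carry no read counts, and the depth of each library is therefore unknown. Among values under 0.2 FPKM, the commonest ratio to WT replicate 3 was 0.97 to 0.98 in the other WT libraries and in ppdnmt2 replicate 2. It was 1.11 in ppdnmt2 replicate 3 and 1.3 in ppdnmt2 replicate 1, the library in which 1 fragment was worth most and low values are least precise if values were scaled to library totals. The part of depth in the results below was not tested.

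The 79 loci covered a wide range of abundance, with means over the 6 libraries from 1.05 to 334 FPKM. The median of these means was 7.79 FPKM, against 10.9 FPKM for all tested loci. The ratio of the ppdnmt2 mean to the WT mean ran from 1.79 to 29.5 in the 76 loci above 0 in every library, with a median of 2.27. Over all 79 it was at least 2 in 60 loci, at least 3 in 24 and at least 5 in 7. The lowest ppdnmt2 value was at least 2 times the highest WT value in 20 loci and at least 3 times in 6. On the log2(FPKM + 1) scale, which understates the change of low loci, the differences ran from 0.61 to 3.54 with a median of 1.07, against -0.02 for all tested loci. Together the 79 loci held 0.404%, 0.272% and 0.367% of the FPKM in WT replicates 1, 2 and 3, and 0.757%, 0.605% and 0.603% in the ppdnmt2 replicates.

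The threshold fell in a dense stretch of values, so that small shifts of a value decide membership. There were 28 members with a lowest ppdnmt2 value of 1.5 to under 1.6 times the highest WT value, and 69 loci stood just below, at 1.4 to under 1.5 times. Just inside were MSTRG.7586 at 1.501, MSTRG.14086 at 1.504 and MSTRG.18249 at 1.506 times. Just outside were MSTRG.488 at 1.499, MSTRG.17760 at 1.496 and MSTRG.18316 at 1.493 times. The rule took 0.47% of the tested loci, while 13.2% had all ppdnmt2 values above all WT values by any margin. A large difference alone did not make a member: of 140 tested loci with a log2 fold change of at least 1, 44 were members. Of the 96 others 48 had overlapping genotypes and 41 were listed at 0 in at least 1 library. In 6 of them the log2 fold change exceeded that of every member.

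**Figure D1:**
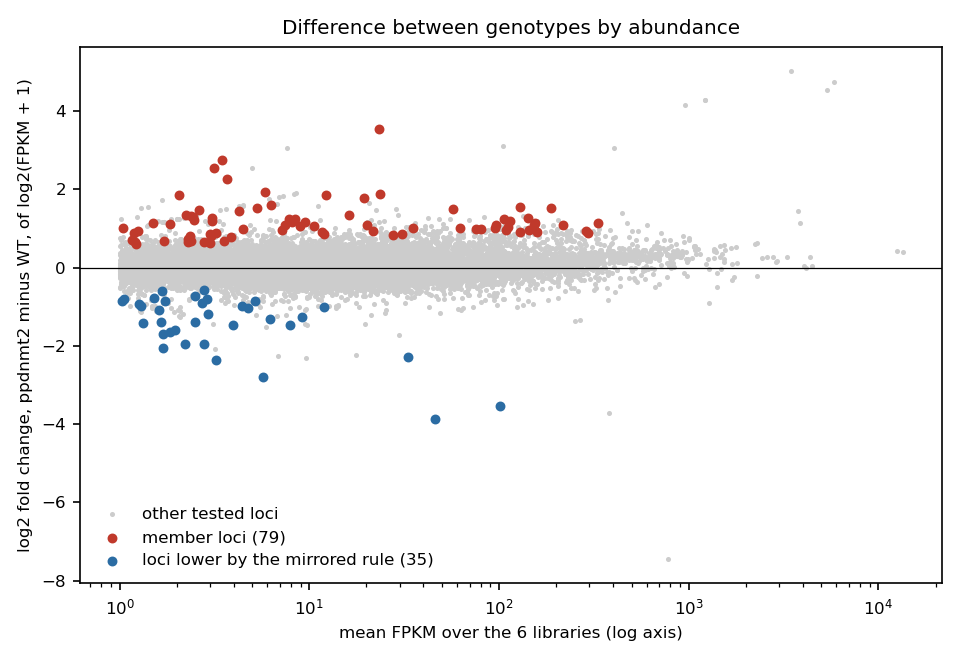
Log2 fold change (ppdnmt2 minus WT, of log2(FPKM + 1)) of each of the 16817 tested loci against its mean FPKM on a log axis. The 79 members lie between 0.61 and 3.54 across the whole range from 1.05 to 334 FPKM, while the 35 loci that the mirrored rule takes as lower lie mostly at the left.

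The widest separation was seen at loci that were close to silent in WT. MSTRG.13849 stood at 0.101, 0.413 and 0.103 FPKM in WT replicates 1, 2 and 3 and at 5.23, 5.75 and 7.23 FPKM in the ppdnmt2 replicates. MSTRG.10715 stood at 0.393 FPKM in WT replicate 1 and was listed at 0 in the other two, while the ppdnmt2 replicates stood at 9.8, 4.66 and 5.96 FPKM. The genotypes lay far apart at both loci, the lowest mutant value being 12.6 times the highest WT value at MSTRG.13849 and 11.9 times at MSTRG.10715. The log2 fold change was 2.55 (SE 0.17) at the former and 2.75 (SE 0.25) at the latter, and it depended on the pseudocount: with 0.1 in place of 1 it was 4.47 and 5.27.

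MSTRG.10732 stood at 0.594, 0.083 and 0.204 FPKM in WT and at 5.69, 2.55 and 3.16 FPKM in ppdnmt2. MSTRG.3661 was listed at 0 in WT replicate 3 and stood at 5.76 and 6.3 FPKM in WT replicates 1 and 2, against 48.3, 46.3 and 32.4 FPKM in ppdnmt2. The value listed at 0 had no part in its membership, which rests on the highest WT value. MSTRG.5740, named after its values were seen, was the only other member listed at 0 in a WT library. It stood at 0, 0 and 1.23 FPKM in WT and at 3.19, 14.7 and 2.82 FPKM in ppdnmt2, so that its mutant mean rests largely on replicate 2. Of the 79 loci, 3 were under 0.5 FPKM in every WT library: MSTRG.13849, MSTRG.10715 and MSTRG.5632. The last of these, also named after its values were seen, stood at 0.343, 0.459 and 0.233 FPKM in WT and at 1.9, 1.07 and 2.27 FPKM in ppdnmt2. No member was listed at 0 in all 3 WT libraries.

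At other loci the difference was large beside the spread of the replicates. MSTRG.5292 stood at 0.867, 0.988 and 0.842 FPKM in WT and at 3.79, 3.96 and 5.21 FPKM in ppdnmt2, with mean ± SD of 0.899 ± 0.0781 and 4.32 ± 0.771 FPKM (n = 3 each). MSTRG.12197 stood at 2.33, 2.43 and 2.07 FPKM in WT and at 8.1, 8.02 and 8.94 FPKM in ppdnmt2, so that the mutant mean was 3.67 times the WT mean. MSTRG.2712 stood at 9.45, 7.93 and 8.77 FPKM in WT and at 25.6, 21.1 and 23.8 FPKM in ppdnmt2, a ratio of means of 2.69. At these 3 loci the gap between the highest WT and the lowest mutant value was wider than the range within either genotype.

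MSTRG.10881 was more variable in WT, at 14.5, 7.99 and 7.09 FPKM, and stood at 41.1, 31.2 and 40.1 FPKM in ppdnmt2. MSTRG.2472 stood at 5.66, 4.29 and 6.35 FPKM in WT and at 13.4, 12 and 11.7 FPKM in ppdnmt2. MSTRG.8010 stood at 3.21, 2.45 and 2.44 FPKM in WT and at 6.45, 5.9 and 6.42 FPKM in ppdnmt2. Their ratios of means were 3.8, 2.28 and 2.31. MSTRG.2196 had the smallest ratio of means in this group, 1.97, with 14.6, 15.4 and 13.7 FPKM in WT and 32, 27.3 and 27 FPKM in ppdnmt2.

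**Figure D2:**
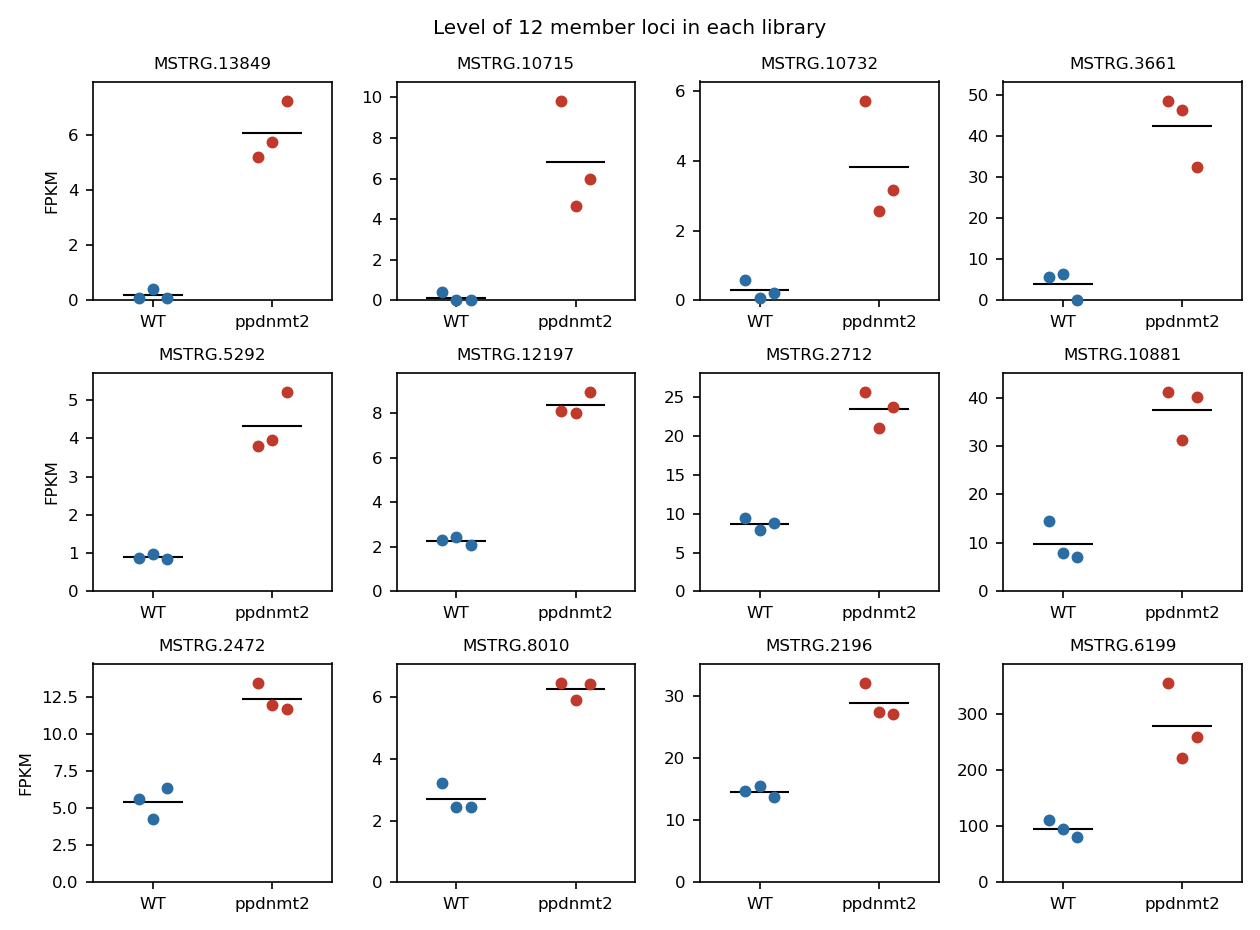
FPKM of 12 member loci in each library, with 3 points per genotype (replicates 1, 2 and 3 from left to right) and a line at the mean. Each vertical axis starts at 0 and has its own scale. At every locus the 3 ppdnmt2 points lie above the 3 WT points, which the choice of loci fixes.

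The loci called higher by limma, a linear model fitted to log2(FPKM + 1) over all tested loci, were all members. At a Benjamini-Hochberg adjusted p under 0.05 it called 10 of the 79 members and 0.0595% of all tested loci higher in ppdnmt2. The rule and the model used the same contrast, so the count says nothing further about these loci. The 10 were MSTRG.13849, MSTRG.10715, MSTRG.5292, MSTRG.12197, MSTRG.2712, MSTRG.10881, MSTRG.2472, MSTRG.8010, MSTRG.2196 and the abundant MSTRG.6199. Of these, 4 had a mean under 5 FPKM, 5 a mean of 5 to under 50 FPKM, and 1 a mean above that. The count moved with the libraries. It was 10, 5 and 6 without WT replicates 1, 2 and 3, and 5, 11 and 2 without ppdnmt2 replicates 1, 2 and 3. Median-ratio rescaling left 5 calls among the members, and quantile normalization left 6. MSTRG.13849 and MSTRG.12197 stayed past the threshold in all 12 and 13 alternatives in which they were tested, whereas MSTRG.2472 did so in 2 of 13.

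The abundant members differed by a modest factor. A mean of 50 FPKM or more was found in 22 of the 79 loci (27.8%) and in 14.4% of the tested loci. The share among the members rests on the deposited scaling. After quantile normalization 4 of the 22 still met the rule, against 32 of the 34 members under 5 FPKM. The ratios of means of the 22 lay in a narrow band, from 1.82 to 2.97 with a median of 2.06. In the 34 members under 5 FPKM the median ratio was 2.84, and in the 23 members between these limits it was 2.4. The rule asks for a larger ratio of means where replicates vary more, so nothing is read from the differences between these classes. The highest of all was MSTRG.5498, at 258, 157 and 220 FPKM in WT and 501, 428 and 437 FPKM in ppdnmt2. MSTRG.7586 stood at 236, 160 and 233 FPKM in WT and at 435, 357 and 355 FPKM in ppdnmt2. At both, WT replicate 2 was the lowest library and ppdnmt2 replicate 1 the highest.

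Loci lower in ppdnmt2 by the mirrored rule, in which the lowest WT value is at least 1.5 times the highest ppdnmt2 value, numbered 35. Of these 1 (2.86%) had a mean of 50 FPKM or more and 26 (74.3%) a mean under 5 FPKM, against 22 and 34 (43%) of the 79 higher loci. Among all tested loci 14.4% had a mean of 50 FPKM or more and 28.1% a mean under 5 FPKM. The median mean level of the 35 lower loci was 2.73 FPKM. The rule chose both sets from the same values in the deposited scaling, and the difference between them in abundance was not tested.

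The 22 abundant members fell into 2 patterns across the libraries, which were noticed in these values and separated by limits set afterwards. In 14 of them WT replicate 2 was at most 0.8 times the mean of the other WT replicates and ppdnmt2 replicate 1 was below 1.25 times (the reciprocal of 0.8) the mean of the other ppdnmt2 replicates. In the other 8, ppdnmt2 replicate 1 was at least 1.25 times that mean and WT replicate 2 was above 0.8 times its own. With these limits, 0 of the 22 showed both features and 0 showed neither. Some loci lay close to a limit. In the first pattern MSTRG.2647 had ppdnmt2 replicate 1 at 1.243 times, and in the second MSTRG.17442 had WT replicate 2 at 0.82 times. A small shift of a limit would therefore change these counts. All ppdnmt2 values lay above all WT values at 653 of the 2429 tested loci of at least 50 FPKM. Over all tested loci this held for 2228 of 16817 (13.2%), so it was more frequent among abundant loci in general. Among the 653, 29.7% had the low WT replicate 2 and 15.2% the high ppdnmt2 replicate 1. Unlike the counts of 14 and 8, each of these shares includes the 4.9% with both, and 60% had neither. Among all 2429 the shares were 16.2% and 7.58%, each including 2.18% with both, and 78.4% had neither. The 22 members passed a wider margin in the same libraries and the limits were set on them, so nothing is read from the contrast.

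In the first pattern, whose limits favour this, the coefficient of variation (SD over mean) was larger in WT than in ppdnmt2 at 13 of the 14 loci. The exception was MSTRG.11487, with 13.4% in WT and 14.2% in ppdnmt2. MSTRG.8806 stood at 126, 55.9 and 122 FPKM in WT and at 206, 202 and 219 FPKM in ppdnmt2. Relative to the mean of each locus, the 14 loci had medians of 0.789, 0.442 and 0.787 in WT replicates 1, 2 and 3 and of 1.37, 1.28 and 1.33 in the ppdnmt2 replicates. WT replicate 1 ranged from 0.707 to 0.834 over the 14 loci, and WT replicate 2 from 0.36 to 0.563, so that the 2 ranges did not overlap. The coefficient of variation had a median of 31.1% in WT and ran from 13.4% to 38.8%. In ppdnmt2 its median was 5.16%, with a range of 2.12% to 14.2%. Without WT replicate 2 the ratio of means of these loci had a median of 1.68 and a range of 1.57 to 1.95, against 1.95 and 1.82 to 2.33 with it. The limits of the pattern fix this fall and favour the distance of WT replicate 2 from WT replicate 1. Nothing further is read from these values.

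In the second pattern, whose limits favour this, the coefficient of variation was larger in ppdnmt2 at 7 of the 8 loci. The exception was MSTRG.9024, at 34, 35 and 20.1 FPKM in WT and 109, 71.1 and 73.9 FPKM in ppdnmt2, with 28.1% in WT and 24.8% in ppdnmt2. MSTRG.6199 stood at 111, 94.8 and 81.1 FPKM in WT and at 354, 222 and 259 FPKM in ppdnmt2. MSTRG.2337 stood at 197, 195 and 188 FPKM in WT and at 481, 302 and 357 FPKM in ppdnmt2, with the smallest coefficient of variation in WT of all 79 loci (2.68%). MSTRG.16233 stood at 155, 130 and 131 FPKM in WT and at 362, 284 and 248 FPKM in ppdnmt2. Relative to each locus mean, the 8 loci had medians of 0.658, 0.587 and 0.537 in the WT replicates and of 1.7, 1.12 and 1.32 in the ppdnmt2 replicates. Their median coefficient of variation was 12.4% in WT and 23.7% in ppdnmt2. Without ppdnmt2 replicate 1 the ratio of means had a median of 2.05 and a range of 1.71 to 2.53, against 2.28 and 1.97 to 2.97 with it. The limits of the pattern fix this fall too, and nothing further is read from it.

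**Figure D3:**
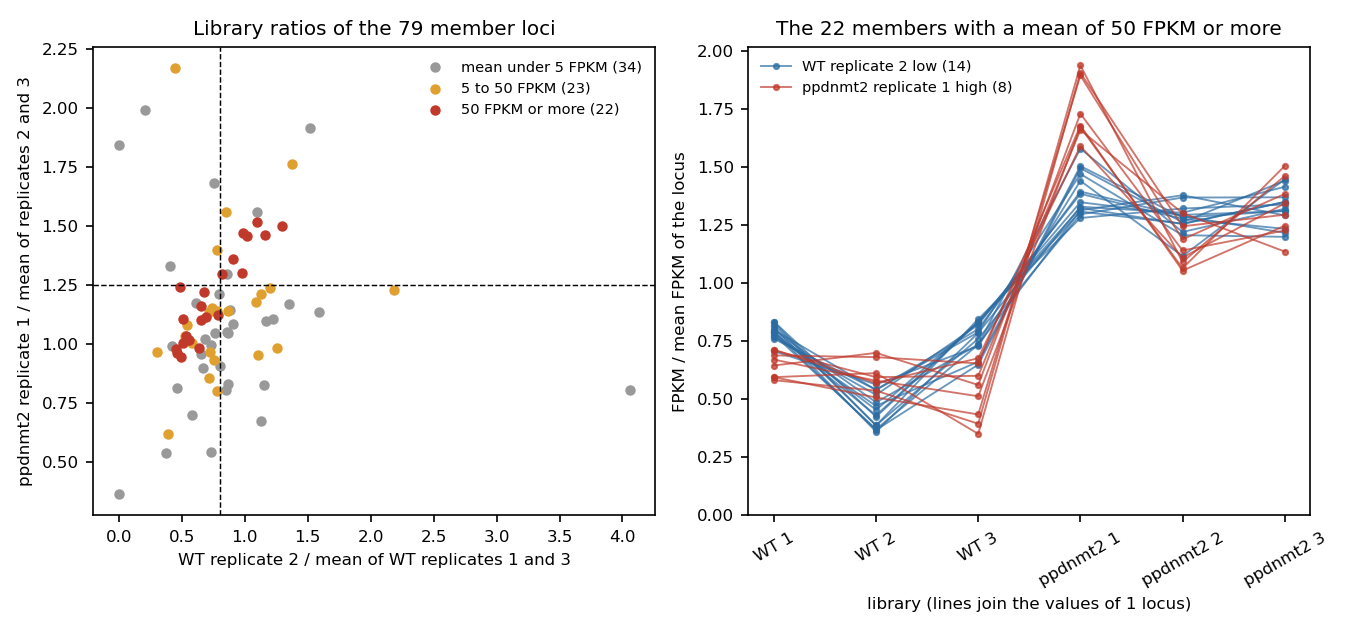
Left, for each of the 79 members, WT replicate 2 over the mean of WT replicates 1 and 3 (horizontal) and ppdnmt2 replicate 1 over the mean of replicates 2 and 3 (vertical), coloured by mean FPKM, with dashed lines at 0.8 and 1.25. Right, FPKM of the 22 abundant members divided by the mean of each locus, with 1 line per locus; 14 loci dip in WT replicate 2 and 8 peak in ppdnmt2 replicate 1.

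The same libraries were counted over the whole set. WT replicate 2 was the lowest WT library in 48 of the 79 members (60.8%), against 35.9% of the tested loci, and WT replicate 1 in 5. It was at most 0.8 times the mean of the other WT libraries in 45 members (57%), against 20.4% of the tested loci. Over the members this ratio had a median of 0.764, and over all tested loci 1.03, so that WT replicate 2 was not low in general. ppdnmt2 replicate 1 was the highest mutant library in 43 members (54.4%), against 28.8% of the tested loci. It was at least 1.25 times the mean of the other ppdnmt2 libraries in 19 members (24.1%), against 12% of the tested loci. These shares come from the values that chose the members, so nothing is read from how far they lie from those of all tested loci. Leaving out WT replicate 2, the ratio of means over the 79 members had a median of 2.15 in place of 2.3, and leaving out ppdnmt2 replicate 1 it was 2.22.

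The median coefficient of variation of the 22 abundant members was 23.5% in WT and 10.4% in ppdnmt2. Members of low and middle level had higher medians than these, but not higher than those of each abundant pattern. The 14 loci with a low WT replicate 2 had 31.1% in WT and 5.16% in ppdnmt2. The 8 with a high ppdnmt2 replicate 1 had 12.4% in WT and 23.7% in ppdnmt2. In the 34 members under 5 FPKM the coefficient of variation had a median of 28.3% in WT and 17.6% in ppdnmt2, and in the 23 members of 5 to under 50 FPKM it was 26.9% and 12.2%. Over all 79 it was 24.4% and 14.2%, against 13.1% and 12.9% over all tested loci. The tightest mutant values of all belonged to MSTRG.657, chosen after its values were seen, with 3.08, 3.1 and 3.09 FPKM in ppdnmt2 and 2.03, 1.21 and 1.28 FPKM in WT.

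**Figure D4:**
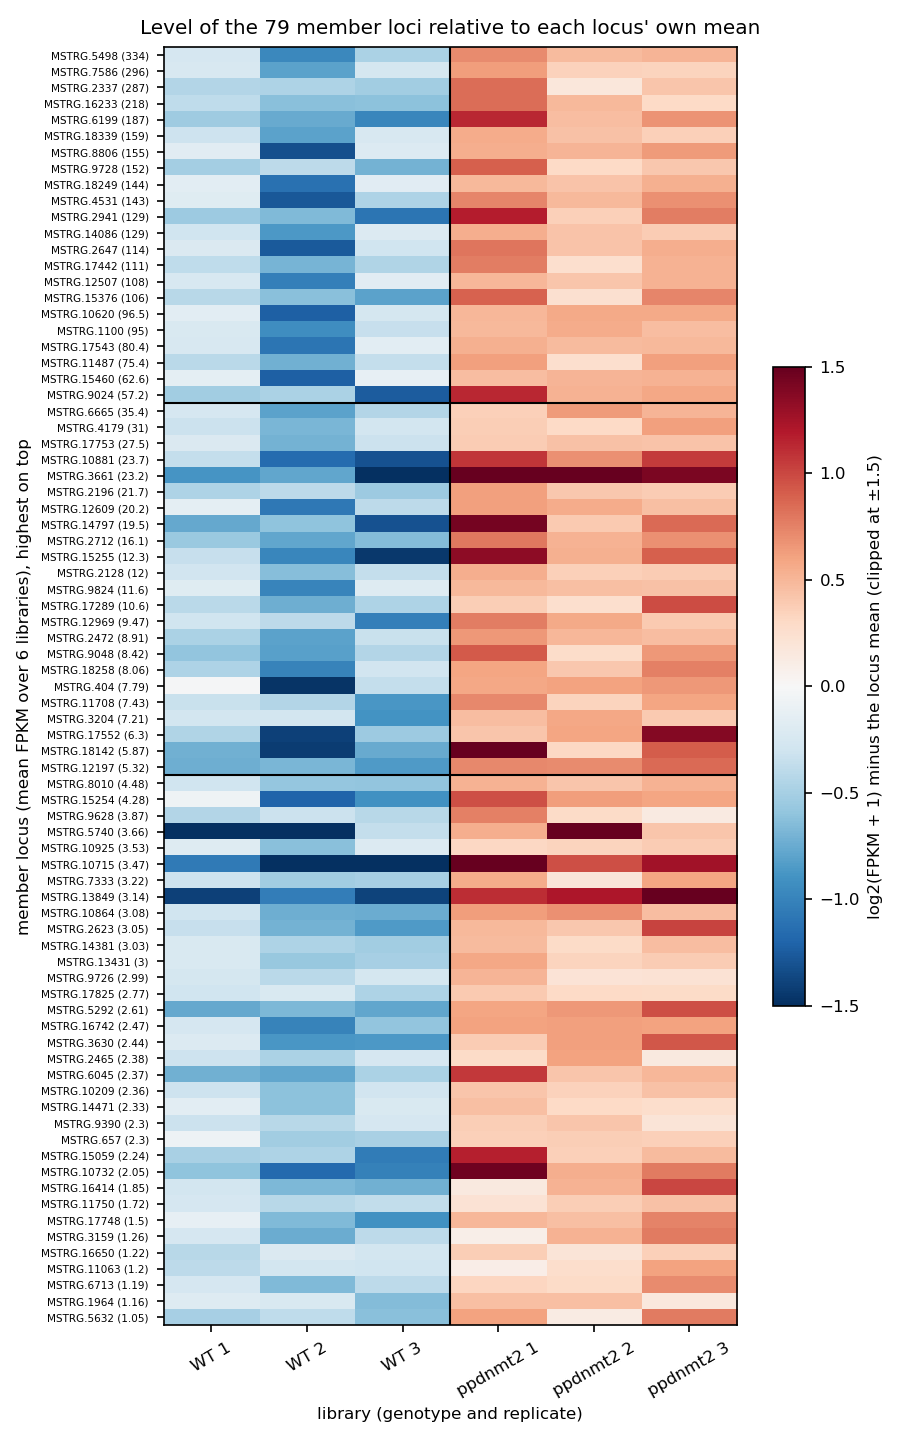
Level of each of the 79 members in each of the 6 libraries as log2(FPKM + 1) minus the mean of the locus, with blue for below and red for above and the scale clipped at 1.5. Loci are ordered by mean FPKM (in brackets), and lines separate the 22 loci of at least 50 FPKM and the 34 under 5 FPKM. Among the abundant loci WT replicate 2 is the darkest blue in the 14 with a low value there.

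How far the abundant members differ depended on the scaling between libraries. After median-ratio rescaling, which multiplies each library by 1 factor (0.977 to 1.02), 73 of the 79 loci still met the rule, among them 19 of the 22 abundant ones. The 3 abundant loci that dropped out, MSTRG.18339, MSTRG.14086 and MSTRG.7586, were near the threshold. After quantile normalization, which gives all libraries the same distribution of values, 57 of the 79 still met it. Of the 22 abundant loci only 4 did so, MSTRG.9024, MSTRG.6199, MSTRG.2941 and MSTRG.9728, all of the pattern with a high ppdnmt2 replicate 1. Of the 23 loci of middle level 21 still met the rule, and of the 34 low ones 32. The lowest ppdnmt2 value of the abundant loci was at the median 1.57 times the highest WT value as deposited. Rescaling by median ratios gave 1.56 times, and quantile normalization gave 1.41 times.

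A few members had numbers next to or near each other. StringTie numbers the loci it assembles, but their positions are not known here, and closeness rests on the numbers alone. MSTRG.15254 and MSTRG.15255 were the only pair with consecutive numbers. They were 2.53% of the members, while 0.83% of the other tested MSTRG loci were numbered next to a member. MSTRG.15254 stood at 3.38, 0.991 and 1.44 FPKM in WT and at 7.95, 6.05 and 5.89 FPKM in ppdnmt2. MSTRG.15255 stood at 7.35, 4.36 and 2.87 FPKM in WT and at 25.8, 14.3 and 18.8 FPKM in ppdnmt2. Both were highest in replicate 1 of each genotype, and their log2 fold changes were 1.45 (SE 0.27) and 1.85 (SE 0.29). Overlapping or split models of 1 gene would share reads and cannot be told apart from separate genes here.

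Within 10 numbers of another member were 12 of the 79 loci (15.2%), while 7.94% of the other tested MSTRG loci lay within 10 numbers of a member. The 12 loci formed 6 pairs, the consecutive one among them. The others were MSTRG.2465 with MSTRG.2472, MSTRG.9726 with MSTRG.9728, MSTRG.17543 with MSTRG.17552, MSTRG.17748 with MSTRG.17753, and MSTRG.18249 with MSTRG.18258. Levels within such a pair could differ widely. MSTRG.9726 stood at 2.25, 1.93 and 2.25 FPKM in WT and at 4.53, 3.49 and 3.5 FPKM in ppdnmt2, and MSTRG.9728 at 98.2, 106 and 85.5 FPKM in WT and at 263, 174 and 187 FPKM in ppdnmt2.

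Loci numbered just before or after a member showed no common direction. There were 138 of them among the tested loci that were not members, with log2 fold changes from -1.27 to 1.23 and a median of -0.02. Of these 65 (47.1%) had a positive value, against 47.7% of all tested loci. All ppdnmt2 values lay above all WT values in 26 (18.8%), against 13.2% of all tested loci, and below them in 20 (14.5%), against 13%. By limma 1 of the 138 was called, against 17 of all 16817 tested loci in both directions. The locus called was MSTRG.13848, and it was lower in ppdnmt2. It stood at 15.2, 12.1 and 12.8 FPKM in WT and at 4.55, 4.61 and 5.68 FPKM in ppdnmt2, next to MSTRG.13849, the member with the widest separation.

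Some neighbours differed between genotypes in the direction of their member without meeting the rule, at other levels. MSTRG.8807 stood at 42.7, 19.6 and 42.1 FPKM in WT and at 64.2, 61.3 and 65 FPKM in ppdnmt2, with the low WT replicate 2 of MSTRG.8806 beside it. MSTRG.4532 stood at 344, 227 and 332 FPKM in WT and at 486, 526 and 485 FPKM in ppdnmt2. It lies beside MSTRG.4531, at 113, 52.5 and 92.7 FPKM in WT and 214, 180 and 206 FPKM in ppdnmt2. Others ran against their member. MSTRG.2197 stood at 9.06, 16.7 and 10.9 FPKM in WT and at 4.54, 6.81 and 5.1 FPKM in ppdnmt2, while MSTRG.2196 was higher in ppdnmt2. MSTRG.3629 stood at 5.94, 9.13 and 5.84 FPKM in WT and at 3.51, 3.79 and 2.85 FPKM in ppdnmt2, beside MSTRG.3630 at 1.67, 0.684 and 0.687 FPKM in WT and 3, 3.72 and 4.87 FPKM in ppdnmt2. In both of these WT replicate 2 was the highest library. Apart from MSTRG.13848, these neighbours were picked after their values were seen.

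**Figure D5:**
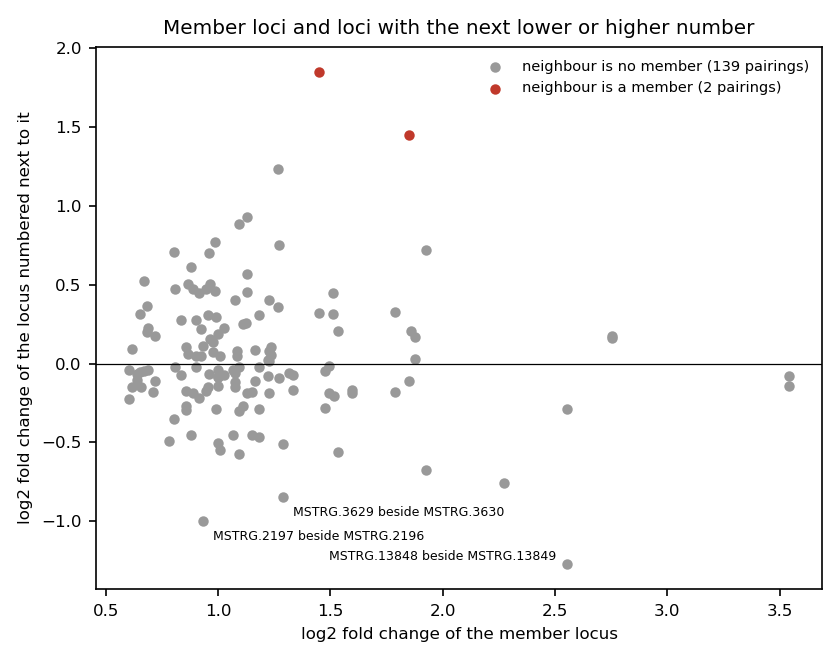
Log2 fold change of each tested locus numbered next to a member (vertical) against that of the member (horizontal), with 139 pairings of a member and a locus that is none in grey and the 2 pairings of MSTRG.15254 with MSTRG.15255 in red. The grey points scatter about 0 (median -0.02), and MSTRG.13848 is the lowest at -1.27.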

How the data were processed

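The 6 libraries measured total RNA of protonemata, made with the NEBNext Ultra II kit per the labels' protocols. The submitters' processing notes name STAR 2.7.8a, StringTie and Cuffdiff 2.2.1, with fastp 0.20.1, bcl2fastq 2.19.0.316, MultiQC 1.9 and FastQC 0.11.9. The role of each tool is not given in the sources used here, nor are the genome build and annotation. The authors deposited 1 normalized value per locus and library, taken here as FPKM; how libraries were scaled to each other is not stated, and an FPKM table keeps no absolute depth.

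Columns were assigned to samples by their titles. The members, the named loci and the alternatives were chosen with earlier results of these data known. Named were the 6 members with the largest ratio of the lowest ppdnmt2 to the highest WT value, the 6 with the highest ppdnmt2 mean, those called by limma, those numbered next to another member and the 3 with the smallest ratio; none had a RefSeq identifier or was 0 in all WT libraries. Other loci were named, and the limits on library patterns (0.8, 1.25) and abundance (5 and 50 FPKM) set, after values were seen.

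The model was limma 3.58.1 in R 4.3.3 (lmFit and eBayes with a mean-variance trend) on log2(FPKM + 1), two-sided, over the 16817 loci averaging 1 FPKM or more, with p-values adjusted over all of them. It was also run on simulated log2 values with normal noise around each locus mean, and no result here rests on that run. No count test was applied, since the values are not counts. Summaries used Python 3.11.15, NumPy 2.4.6 and pandas 2.3.3. Other settings tried were a pseudocount of 0.1, no minimum mean or one of 5 FPKM, median-ratio rescaling, quantile normalization, no trend, a replicate block, a ratio of 2 in place of 1.5, and leaving out each library.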

Additional observations from a re-analysis of the deposited data

How the results depend on the processing

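The number of loci that met the rule, 79, was 74 after median-ratio rescaling, 65 after quantile normalization, 138 with no minimum mean, 45 with a minimum mean of 5 FPKM and 20 with a ratio of at least 2. Leaving out 1 library gave 101 to 195, the fewest without WT replicate 2 and the most without WT replicate 1; a rule on fewer libraries is met more easily. Of the members limma called 10, or 5 without a trend, 5 with no minimum mean, 5 with a minimum mean of 5 FPKM (45 members tested), 5 after median-ratio rescaling, 6 after quantile normalization and 2 to 11 leaving out 1 library. Of all tested loci it called 17 in both directions, or 11 without a trend, 11 with no minimum mean, 10 with a minimum mean of 5 FPKM and 8 to 22 leaving out 1 library (8 without ppdnmt2 replicate 3, 11 without WT replicate 2). The cause of these differences was not tested. The median log2 fold change of the members, 1.07, stayed between 0.93 and 1.17 under the alternatives run. Of the 267 combinations of a named member and an alternative, 0 changed sign, which the rule largely fixes, and 208 kept their side of the threshold. A call was lost in 50 and gained in 9. Members called in the main setting stayed past the threshold in 76 of their 126 combinations.

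With the replicate number as a block, 40 members and 108 tested loci were called. Same-numbered WT and ppdnmt2 samples deviated from their group means with correlations of -0.11 (number 1), 0.14 (number 2) and 0.17 (number 3). Since the labels name no common day or culture either, the numbers are not read as pairs. Absolute depth is unknown, which limits the low members most.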
